A study of Mus musculus with 12 samples.

Results

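The MAP kinase cascade is held in check by genes that its own activity induces. Described here are 9 of them, of the 23366 gene symbols in the deposited count table: the dual-specificity phosphatases Dusp1, Dusp4, Dusp5 and Dusp6, the Sprouty genes Spry1, Spry2 and Spry4, and the Sprouty-related genes Spred1 and Spred2. They were chosen by symbol, with earlier results of these data known, and each had a single transcript row in the table. RNA was sequenced from mouse embryonic fibroblasts (MEFs), connective tissue cells grown from embryos, of strain C57BL/6 at passages 3 to 5. Both genotypes were used, wild type and knockout of Carm1, the gene of an arginine methyltransferase that modifies histone H3 and acts as a transcriptional coactivator. Rich medium was DMEM with 10% fetal bovine serum. Starved cells were washed in buffered saline and kept for 18 h in DMEM without glucose, with 10% dialyzed serum, so the serum differed as well as the glucose. Rich libraries are labelled 0 h, and no group was kept for 18 h in rich medium. The wash, the change of medium and the time in culture therefore cannot be told apart from the loss of glucose. Each of the 4 groups held 2 libraries, and the labels do not say that these were separate cultures or how many embryos or lines gave each genotype. P-values therefore measure the spread between these libraries, which may be technical.

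Growth factors that bind receptor tyrosine kinases switch on Ras, which starts the relay of RAF, MEK and ERK kinases. ERK then drives transcription of early genes, and among these are its own inhibitors. DUSP phosphatases remove phosphate from the activation loop of MAP kinases: DUSP1, DUSP4 and DUSP5 act in the nucleus, DUSP5 and DUSP6 are selective for ERK, and DUSP1 and DUSP4 also act on the stress kinases JNK and p38. Sprouty and SPRED proteins act further upstream, between the receptor and RAF, and SPRED proteins bring the Ras-inactivating protein neurofibromin to the membrane. In fibroblasts the transcripts of several of these genes are short-lived and follow growth factor signalling closely, which is why they are often read as a gauge of it.

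Gene counts totalled 8447016 in knockout rich replicate 1 and 20495124 to 28155438 in each of the other libraries. In CPM (read counts scaled to library size), 3 counts corresponded to 0.104 to 0.369, the highest value in that shallow library. Carm1 stood at 207 and 204 CPM in wild-type rich and 176 and 164 CPM in wild-type starved libraries, against 48.1 and 70.8 CPM and 53.9 and 58.6 CPM in the knockout. Which part of the gene is deleted is not given in the labels, so reads from the rest of the transcript may be among these. The replicates of the knockout rich group lay farthest apart, with a standard deviation of 0.77 in the log2 ratio between replicates over 9392 genes, against 0.155 to 0.163 in the other groups. For the 9 members that ratio stayed between -0.69 and 0.26 in the knockout rich group. The genotypes also differed in cell type markers. The summed level of 8 fibroblast markers was 10946 to 11027 CPM in wild-type rich, 7859 to 8068 in wild-type starved, 13577 to 17329 in knockout rich and 15261 to 15665 in knockout starved libraries. In each wild-type group 6 of the 8 were above 1 CPM, and in each knockout group all 8. These markers did not move alike. Fibronectin, Fn1, the largest part of the sums, stood at 3418 and 3317, 3220.2 and 2593, 9076 and 10149 and 10585 and 10324 CPM in the same order of groups. The collagen gene Col1a1 was lower in the knockout, at 2774 and 2807, 1399.8 and 1506, 804 and 1206 and 657 and 635 CPM. Thy1, a surface protein of many fibroblasts, stood at 0.0465 and 0.214 CPM in wild-type rich, 0.159 and 0.0692 in wild-type starved, 135 and 124 in knockout rich and 180.4 and 168 in knockout starved libraries. For 6 endothelial markers the sums were 0.570 to 0.604, 0.398 to 0.519, 132 to 158 and 242 to 245 CPM in the same order. The endothelial cadherin Cdh5 made up most of the knockout sums (126 and 154 CPM rich, 237 and 240.2 CPM starved), where 2 of the 6 markers were above 1 CPM, while the endothelial Tie1 and Emcn had 0 counts in all 8 libraries. Of 6 leukocyte markers, 2 were above 1 CPM in each wild-type group and 4 in each knockout group, and Tyrobp had 0 counts throughout. The sums were 5.58 to 5.67, 7.82 to 7.89, 12.7 to 33.8 and 23.9 to 26.9 CPM for these 6 markers. They were 1.44 to 1.92, 2.91 to 3.88, 1.48 to 2.41 and 1.72 to 2.81 CPM for 6 epithelial markers, and 262 to 266, 622 to 658, 148 to 208 and 806 to 821 CPM for 6 smooth muscle and pericyte markers. Within the last list Tagln was lower in the knockout, at 165 and 159.8, 436 and 469.9, 23.9 and 39.1 and 179 and 182 CPM. The part of these differences in the results on the feedback genes was not tested. In such bulk samples, fewer cells of a type and less RNA per cell cannot be told apart.

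The nuclear phosphatase genes Dusp1 and Dusp5 went down in starved wild-type cells and up in starved knockout cells. Changes are log2 fold changes ± SE from edgeR's quasi-likelihood test over all 8 libraries, with Benjamini-Hochberg adjusted p-values over 13882 genes and a threshold of 0.05. Dusp5 stood at 13.8 and 15.9 CPM in wild-type rich and 2.31 and 2.35 CPM in wild-type starved libraries. In the knockout it stood at 7.87 and 12.8 CPM in rich medium and 76.3 and 80.1 CPM after starvation. Starved knockout libraries were thus the highest and starved wild-type libraries the lowest, with no overlap between any groups. The fall in wild-type cells was 6.36-fold (-2.67 ± 0.25, adjusted p = 0.000579) and the rise in knockout cells 7.41-fold (2.89 ± 0.24, adjusted p = 0.0011). In rich medium the knockout mean lay below the wild-type mean, a difference that did not pass the test (-0.50 ± 0.23, adjusted p = 0.119). With a library left out the value ranged from -0.93 to -0.26, and it passed in 1 of 8 such fits, without knockout rich replicate 2 (adjusted p = 2.92e-05, otherwise up to 0.379). After starvation the knockout was 33.4-fold higher (5.06 ± 0.27, adjusted p = 1.38e-05). The 2 responses differed by 5.56 ± 0.34 on the log2 scale (adjusted p = 0.00056), the widest difference among the members. It kept its call in all 8 fits that left out a library, with values from 5.33 to 5.99.

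Dusp1, an early-response gene, stood at 21.7 and 20.1 CPM in wild-type rich and 12.9 and 11.7 CPM in wild-type starved libraries. It stood at 7.75 and 10.6 CPM in knockout rich and 26.9 and 32.0 CPM in knockout starved libraries. The order of the groups was knockout starved, wild-type rich, wild-type starved and knockout rich, with no overlap between neighbours. Dusp1 fell 1.70-fold in wild-type cells (-0.76 ± 0.20, adjusted p = 0.0242) and rose 3.16-fold in knockout cells (1.66 ± 0.21, adjusted p = 0.00372). The knockout was 2.24-fold lower in rich medium (-1.17 ± 0.20, adjusted p = 0.00364) and 2.39-fold higher after starvation (1.26 ± 0.20, adjusted p = 0.0016), opposite directions in the 2 media. With limma-voom and quality weights the lower level in rich medium (adjusted p = 0.134) and the rise in knockout cells (adjusted p = 0.0674) did not pass. The fall in wild-type cells ranged from -0.84 to -0.68 with a library left out, and lost its call in several of these fits. The difference between the responses was 2.42 ± 0.28, adjusted p = 0.00325, and it kept its call with each library left out in turn.

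The promoters of Dusp1, Dusp5 and Spred2 are shown because these genes, with Spry2, fell in starved wild-type cells and differed in response between the genotypes. Their windows hold matches to motifs of early-response transcription, and that of Spry2 holds none. Sequences are RefSeq's, 250 bases upstream of the annotated start, 5′ to 3′ on the gene's strand, in build GRCm38.p6 and not in the mm9 build of the counts. Capitals mark matches to the CArG box, to which serum response factor binds, and to TGACG, the core of the cyclic AMP response element (CRE), on either strand. The Dusp1 window is chr17:26508473-26508722 on the minus strand, the Dusp5 window chr19:53528895-53529144 on the plus strand and the Spred2 window chr11:19924192-19924441 on the plus strand.
Dusp1: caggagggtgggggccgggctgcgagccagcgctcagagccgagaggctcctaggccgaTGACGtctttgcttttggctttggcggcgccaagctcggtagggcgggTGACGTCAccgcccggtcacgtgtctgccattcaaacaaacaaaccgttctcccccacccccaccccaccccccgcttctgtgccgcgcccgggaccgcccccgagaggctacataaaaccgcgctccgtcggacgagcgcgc
Dusp5: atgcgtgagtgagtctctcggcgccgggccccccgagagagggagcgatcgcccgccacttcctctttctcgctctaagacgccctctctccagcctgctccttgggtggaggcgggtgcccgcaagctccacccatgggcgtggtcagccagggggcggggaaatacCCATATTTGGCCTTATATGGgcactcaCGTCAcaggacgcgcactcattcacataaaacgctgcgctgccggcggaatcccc
Spred2: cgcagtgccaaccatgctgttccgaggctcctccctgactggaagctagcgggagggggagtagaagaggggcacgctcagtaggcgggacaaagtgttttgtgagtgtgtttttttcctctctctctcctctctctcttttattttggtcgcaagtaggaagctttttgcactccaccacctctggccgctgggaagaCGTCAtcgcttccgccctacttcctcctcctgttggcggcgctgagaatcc
In Dusp5 a pair of CArG boxes lies 82 to 73 and 72 to 63 bases before the start, next to each other, and a CRE core lies 55 to 51 bases before it. In Dusp1 a full CRE, TGACGTCA, lies 143 to 136 bases before the start and holds the TGACG core on both strands, and a further core lies 191 to 187 bases before it. Spred2 holds a CRE core 51 to 47 bases before its start. Of 32851 RefSeq promoter windows of the same length, 1.47% hold a CArG box, 1.55% a full CRE and 17.8% the core. Entries were found for 7 of the 9 members, all but Dusp4 and Spry4. Those of Dusp6, Spry1, Spry2 and Spred1 hold none of these letters, and no entry of the 7 holds TGANTCA, the AP-1 site, or CCGGAA, an ETS core, which 6.75% and 12% of windows hold. A match of letters is a description and not a measured binding site.

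The ERK-selective cytoplasmic phosphatase gene Dusp6 and the nuclear phosphatase gene Dusp4 were higher in the knockout in both media and rose further there with starvation. Dusp4 stood at 0.976 and 1.68 CPM in wild-type rich and 1.51 and 1.59 CPM in wild-type starved libraries, with raw counts of 21 to 47. It stood at 50.4 and 56.8 CPM in knockout rich and 106 and 121 CPM in knockout starved libraries. The wild-type groups overlapped and every knockout library lay far above them. Dusp4 was 39.7-fold higher in the knockout in rich medium (5.31 ± 0.26, adjusted p = 1.55e-05) and 72.7-fold higher after starvation (6.18 ± 0.26, adjusted p = 6.13e-06), the widest gap between genotypes among the members. It rose 2.11-fold in starved knockout cells (1.08 ± 0.20, adjusted p = 0.0141), while its value in wild-type cells was 0.21 ± 0.27, adjusted p = 0.598. The difference between these responses did not pass the test (0.87 ± 0.34, adjusted p = 0.136), and it passed without knockout rich replicate 1 (0.86, adjusted p = 0.00721) or 2 (0.99, adjusted p = 0.00167). Over all 8 fits that left out a library it ranged from 0.42 to 1.19 (adjusted p up to 0.596).

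Dusp6 stood at 6.83 and 5.24 CPM in wild-type rich and 5.38 and 6.23 CPM in wild-type starved libraries, which overlapped. It stood at 21.9 and 29.9 CPM in knockout rich and 54.1 and 53.6 CPM in knockout starved libraries, each group apart from all others. The knockout was 4.33-fold higher in rich medium (2.11 ± 0.22, adjusted p = 0.000356) and 9.27-fold higher after starvation (3.21 ± 0.23, adjusted p = 4.47e-05). Starvation raised Dusp6 2.07-fold in knockout cells (1.05 ± 0.21, adjusted p = 0.017), and its value in wild-type cells was -0.05 ± 0.22, adjusted p = 0.897. The difference between the responses missed the threshold (1.10 ± 0.30, adjusted p = 0.0567). It passed with DESeq2 (adjusted p = 0.0101), with relative log expression scaling (adjusted p = 0.0475), without the filter on low counts (adjusted p = 0.0438) and without knockout rich replicate 1 or 2 (adjusted p = 4.79e-05 and 2.09e-07).

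**Figure D1:**
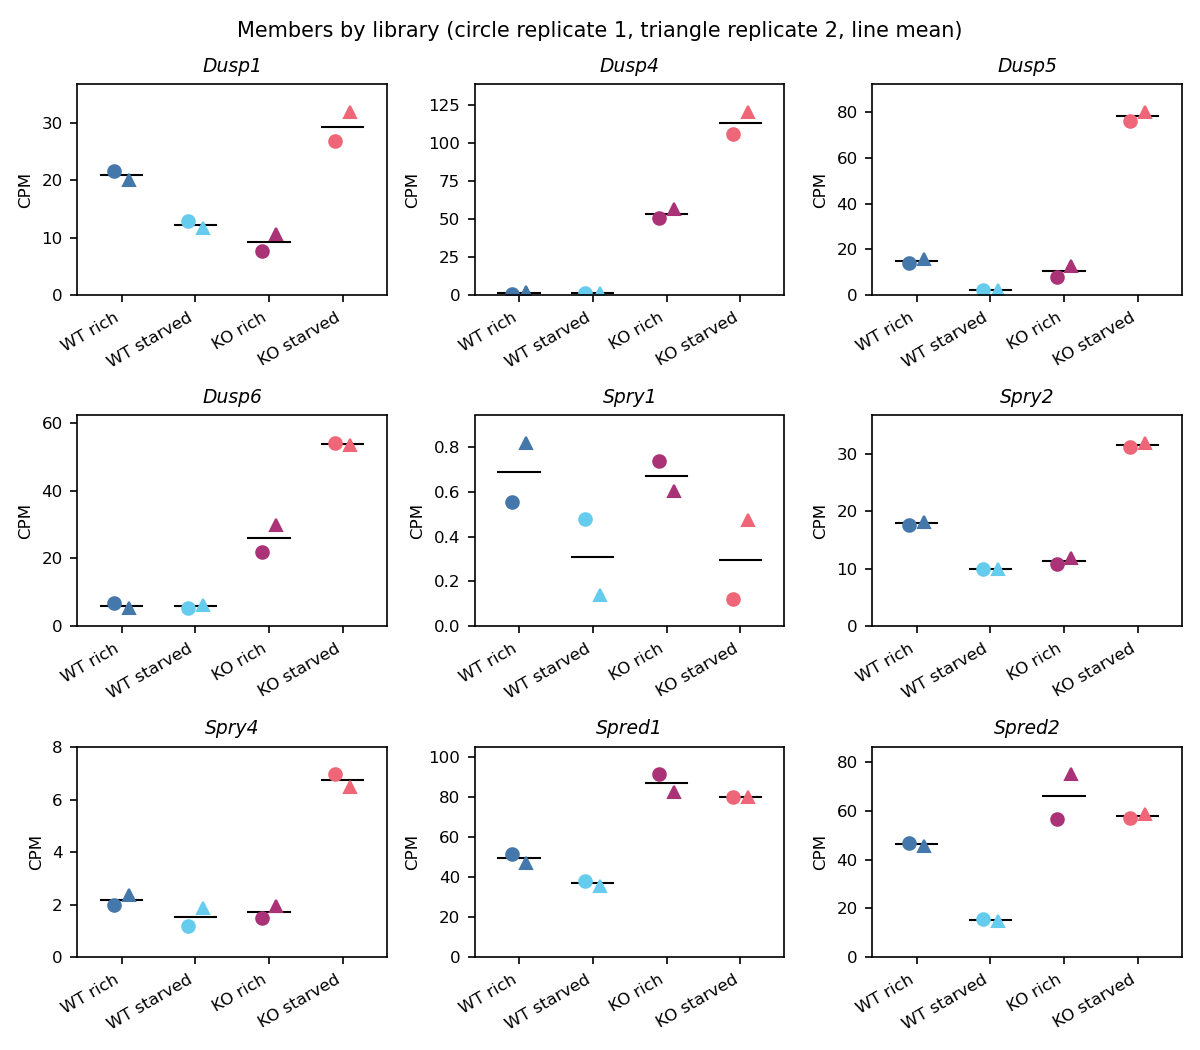
Level of each of the 9 feedback genes in CPM on TMM-scaled library sizes (y axis from 0, a scale per gene) in the 4 groups of 2 libraries (x axis). Symbols are single libraries and lines group means. The starved knockout libraries are the highest for Dusp1, Dusp4, Dusp5, Dusp6, Spry2 and Spry4, and the knockout rich libraries reach highest for Spred1 and Spred2.

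Among the Sprouty genes, Spry2 and Spry4 rose in starved knockout cells, Spry2 fell in starved wild-type cells, and Spry1 was close to the limit of detection. Spry2, a general inhibitor of receptor tyrosine kinase signalling, stood at 17.7 and 18.2 CPM in wild-type rich and 9.88 and 9.97 CPM in wild-type starved libraries. It stood at 10.8 and 11.8 CPM in knockout rich and 31.2 and 31.9 CPM in knockout starved libraries. No groups overlapped, and replicates lay close together. Spry2 fell 1.81-fold in wild-type cells (-0.85 ± 0.15, adjusted p = 0.00532) and rose 2.78-fold in knockout cells (1.48 ± 0.15, adjusted p = 0.00188). The knockout was 1.58-fold lower in rich medium (-0.66 ± 0.15, adjusted p = 0.0106) and 3.18-fold higher after starvation (1.67 ± 0.15, adjusted p = 0.000111). The difference between the responses, 2.33 ± 0.21, adjusted p = 0.00143, kept its call in all 8 fits that left out a library, with values from 2.32 to 2.41.

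Spry4, an inhibitor of the same signalling step, stood at 2.00 and 2.35 CPM in wild-type rich and 1.20 and 1.87 CPM in wild-type starved libraries. It stood at 1.48 and 1.95 CPM in knockout rich and 6.98 and 6.50 CPM in knockout starved libraries, and these last were apart from all others. The knockout rich libraries overlapped the wild-type starved libraries. Spry4 rose 3.81-fold in knockout cells (1.93 ± 0.30, adjusted p = 0.00728), while its value in wild-type cells was -0.50 ± 0.29, adjusted p = 0.236. After starvation it was 4.36-fold higher in the knockout (2.12 ± 0.28, adjusted p = 0.000738), and in rich medium the value was -0.30 ± 0.31, adjusted p = 0.457. The responses differed by 2.43 ± 0.42, adjusted p = 0.0126. That call was lost without either wild-type rich library, wild-type starved replicate 1 or either knockout starved library (adjusted p up to 0.0782).

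Spry1, the third Sprouty gene, had between 3 and 23 counts per library. It stood at 0.558 and 0.820 CPM in wild-type rich, 0.478 and 0.138 CPM in wild-type starved, 0.738 and 0.603 CPM in knockout rich and 0.120 and 0.473 CPM in knockout starved libraries. It passed none of the 5 edgeR comparisons, with a value of -1.20 ± 0.71, adjusted p = 0.242 for starvation of wild-type cells and -1.14 ± 0.80, adjusted p = 0.357 for starvation of knockout cells. With limma-voom and quality weights its fall in wild-type cells passed (adjusted p = 0.0459), and otherwise changes of Spry1 were not detectable at this depth.

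Both SPRED genes fell in starved wild-type cells and were higher in the knockout in both media, and neither passed the test for starvation of knockout cells. Spred2 stood at 46.6 and 45.7 CPM in wild-type rich and 15.4 and 14.7 CPM in wild-type starved libraries. It stood at 56.7 and 75.1 CPM in knockout rich and 56.9 and 58.8 CPM in knockout starved libraries, which overlapped. Wild-type starved libraries were the lowest by a wide margin. Spred2 fell 3.07-fold in wild-type cells (-1.62 ± 0.17, adjusted p = 0.000808), and its value in knockout cells was -0.19 ± 0.16, adjusted p = 0.444. Without knockout rich replicate 1 that value passed (-0.36, adjusted p = 0.000959), and without replicate 2 it was 0.04 (adjusted p = 0.811). The knockout was 1.43-fold higher in rich medium (0.52 ± 0.16, adjusted p = 0.0367) and 3.84-fold higher after starvation (1.94 ± 0.17, adjusted p = 0.000101). The responses differed by 1.42 ± 0.23, adjusted p = 0.00965, a call lost when any 1 wild-type or knockout starved library was left out (adjusted p up to 0.0695).

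Spred1, whose loss in people causes a syndrome related to neurofibromatosis, stood at 51.4 and 47.0 CPM in wild-type rich and 38.1 and 35.4 CPM in wild-type starved libraries. It stood at 91.4 and 82.5 CPM in knockout rich and 80.0 and 80.1 CPM in knockout starved libraries. All knockout libraries lay above all wild-type libraries. Spred1 fell 1.34-fold in wild-type cells (-0.42 ± 0.13, adjusted p = 0.0418), and its value in knockout cells was -0.12 ± 0.13, adjusted p = 0.554. The knockout was 1.77-fold higher in rich medium (0.82 ± 0.13, adjusted p = 0.00221) and 2.18-fold higher after starvation (1.12 ± 0.13, adjusted p = 0.000361). The difference between the responses was 0.30 ± 0.18, adjusted p = 0.309, and it passed without knockout rich replicate 1 (adjusted p = 0.00152) and in none of the other 7 such fits (up to 0.617).

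**Figure D2:**
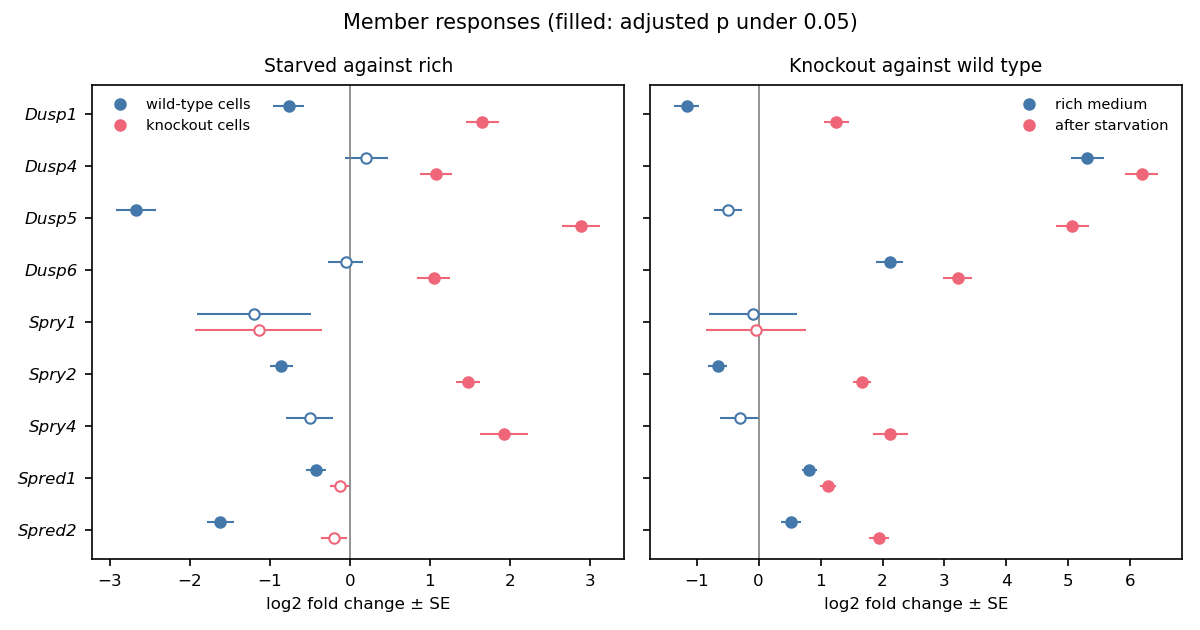
Log2 fold change ± SE of the 9 genes on starvation in each genotype (left) and between genotypes in each medium (right), from the fit over 8 libraries. Filled symbols have an edgeR adjusted p under 0.05. In the left panel wild-type values lie at or below 0 for all but Dusp4, and knockout values lie above 0 for the 4 phosphatase genes, Spry2 and Spry4.

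Counted over the members, 5 of 9 fell and 0 rose in starved wild-type cells, against 18.0% of all genes tested that fell, 14.8% that rose and 32.9% in either direction. The 5 were Dusp1, Dusp5, Spry2, Spred1 and Spred2. All 9 members passed the filter on low counts, and their median change was -0.76, against 0.00 over all genes. Risers also numbered 0 at an unadjusted p under 0.05, with DESeq2 and with limma-voom. The share over all genes depended on the fit. In the 4 wild-type libraries alone edgeR called 5 members lower, where 4616 genes fell and 4716 rose. With limma-voom and quality weights 6 members fell, where 4702 genes fell and 4696 rose. Over 8 libraries edgeR had 2501 genes that fell and 2060 that rose. The calls of Dusp5 and Spred2 held with each of the 8 libraries left out in turn. That of Spry2 was lost without wild-type rich replicate 2 or either wild-type starved library (adjusted p up to 0.0583). Those of Dusp1 and Spred1 were lost when any 1 wild-type or knockout starved library was left out (adjusted p up to 0.161 and 0.247).

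In starved knockout cells 6 of 9 members rose and 0 fell, where 8.44% of all genes rose, 9.78% fell and 18.2% were called in either direction. The 6 were the phosphatase genes Dusp1, Dusp4, Dusp5 and Dusp6 and the Sprouty genes Spry2 and Spry4. The median change of the members was 1.08, against 0.00 over all genes. None fell at an unadjusted p under 0.05 or with DESeq2, and limma-voom with quality weights called 3 rises, of Dusp4, Dusp5 and Spry2, and 0 falls. In a fit of the 4 knockout libraries alone, edgeR called 0 members and 0 genes in all, with 6 members at an unadjusted p under 0.05, all higher, and a smallest adjusted p of 0.0583. Leaving out a knockout starved library left 3 calls (Dusp1, Dusp5 and Spry2, without replicate 1) or 2 (Dusp5 and Spry2, without replicate 2), and leaving out either knockout rich library left all 6.

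The test of the responses against each other called 5 of 9 members, all with the knockout response above the wild-type response, where 7.42% of all genes were called in that direction, 5.91% in the other and 13.3% in all. These were Dusp1, Dusp5, Spry2, Spry4 and Spred2, and the other 4 members did not pass, which does not show that their responses were alike. DESeq2 called 6, Dusp6 beside these 5, and limma-voom with quality weights 4, without Spry4, all in the same direction. Over all genes DESeq2 called 2740 and limma-voom 2032, against 1850 with edgeR. The count was higher with either knockout rich library left out, and so was the count over all genes. It was 3 or 4 when any 1 library of the other groups was left out, and Dusp1, Dusp5 and Spry2 were called in every such fit.

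**Figure D3:**
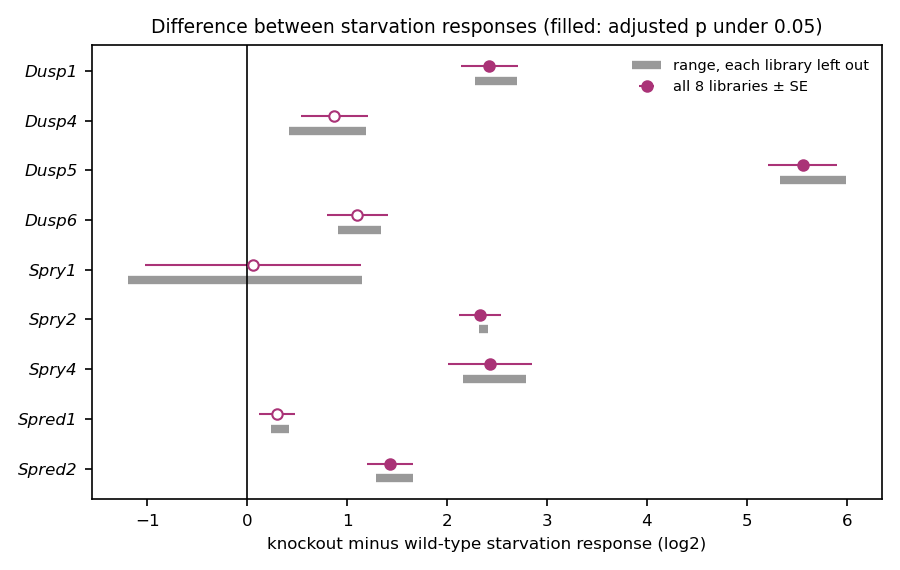
Difference between the starvation responses (knockout minus wild type, log2 scale, x axis) of the 9 genes. Symbols give the value ± SE over all 8 libraries, filled where the edgeR adjusted p is under 0.05, and grey bars the range over 8 fits that each left out a library. Dusp5 lies farthest from 0, and the bar of Spry1 crosses 0.

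Between genotypes, 8 of 9 members were higher in the knockout after starvation and 0 lower, where 27.8% of all genes were higher, 26.8% lower and 54.6% called in either direction. Spry1 was the exception (-0.04 ± 0.81, adjusted p = 0.973). The 8 calls held with each of the 8 libraries left out in turn and in the fit of the 4 starved libraries alone, and no member was lower at an unadjusted p under 0.05, with DESeq2 or with limma-voom. That fit of the starved libraries called 11038 genes in all, 5442 higher and 5596 lower, against 7586 over 8 libraries. In rich medium 4 members were higher in the knockout (Dusp4, Dusp6, Spred1 and Spred2) and 2 lower (Dusp1 and Spry2), where 23.4% of all genes were higher, 20.7% lower and 44.0% called in either direction. The median of the members was 1.94 after starvation and -0.10 in rich medium, against -0.02 and 0.00 over all genes. Of the calls in rich medium, those of Dusp4, Dusp6, Spred1 and Dusp1 held with each library left out in turn. That of Spry2 was lost without either wild-type rich library (adjusted p up to 0.0798) and in the fit of the 4 rich libraries alone (adjusted p = 0.109), and that of Spred2 when any 1 library outside the knockout rich group was left out (adjusted p up to 0.181). limma-voom with quality weights called 3 members higher (Dusp4, Dusp6 and Spred1) and 0 lower in rich medium, so both lower calls were lost (adjusted p = 0.134 for Dusp1 and 0.239 for Spry2). The starvation and genotype comparisons share libraries, so their calls are not independent of each other.

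The pathway around the members is described by 7 lists, also chosen with earlier results of these data known. Of all genes tested, 18.0% fell and 14.8% rose in starved wild-type cells, and 9.78% fell and 8.44% rose in starved knockout cells. After starvation 27.8% were higher and 26.8% lower in the knockout. The responses differed with the knockout above in 7.42% and below in 5.91%. Of the other MAP kinase phosphatase, Sprouty and SPRED genes, 7 were tested, of which 3 fell and 0 rose in starved wild-type cells (median -0.98), and 5 rose and 0 fell in starved knockout cells (median 1.21). Spry3 had 0 counts in all 8 libraries. Spred3 (-1.63 ± 0.17) and Dusp7, a cytoplasmic ERK phosphatase (-1.23 ± 0.23), had the largest falls in wild-type cells. Dusp8 (2.39 ± 0.33), which acts on JNK and p38, and Dusp9 (1.47 ± 0.38) had the largest rises in knockout cells. All 7 were higher in the knockout after starvation (median 2.11), with the largest values in Dusp2, a nuclear phosphatase of immune cells (4.26 ± 0.54), and Spred3 (2.43 ± 0.18). With either knockout rich library left out, more of the 7 were called in each genotype, as were more of all genes.

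Many genes known as outputs of ERK fell with starvation in wild-type cells and rose in knockout cells. Of 20, 12 fell and 1 rose in wild-type cells (median -1.73), led by the early-response factor Egr1 (-3.15 ± 0.13, 107 ± 7.32 to 12.1 ± 0.428 CPM, mean ± SD, n = 2) and cyclin D1, Ccnd1 (-2.45 ± 0.11), while the ephrin receptor Epha4 rose (2.74 ± 0.16). In knockout cells 10 rose and 1 fell (median 0.57), with the ephrin receptor Epha2 (2.93 ± 0.21) and Myc (1.89 ± 0.12) highest and the ETS factor Etv1 lower (-1.19 ± 0.32). In rich medium 12 of 20 were higher in the knockout and 3 lower (median 1.10), where 23.4% of all genes were higher and 20.7% lower. After starvation 19 of 20 were higher in the knockout and 0 lower (median 3.20). Egr2, with 0 counts in the wild-type starved libraries, was at least 250-fold higher against 3 counts over that group. With Egr2 at its bound the list's medians after starvation and in wild-type cells were the same. The responses differed in 13, with 12 above and 1, Epha4 (-1.58 ± 0.21), below the wild-type response.

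Ligands and receptors upstream of Ras held genes called in each direction. After starvation 12 of 15 ligands were higher and 1 lower in the knockout (median 2.58). Of 14 receptors, 8 were higher and 4 lower there. The knockout response lay above the wild-type response in 6 ligands and below in 1, and above in 3 receptors and below in 1. Of 15 growth factor ligands, 8 fell and 1 rose in starved wild-type cells, and 4 rose and 2 fell in starved knockout cells. Hbegf, a ligand of the epidermal growth factor (EGF) receptor that ERK itself induces, went from 43.8 ± 3.19 to 19.9 ± 1.87 CPM in wild-type cells (-1.14 ± 0.24, adjusted p = 0.0111). In knockout cells it went from 24.9 ± 9.24 to 224 ± 11.7 CPM (3.15 ± 0.26), so its responses differed by 4.29 ± 0.35, adjusted p = 0.00105. Epiregulin, Ereg, another EGF receptor ligand, was higher in the knockout in rich medium (4.72 ± 0.28) and after starvation (7.15 ± 0.31). Hgf, the ligand of Met, had 0 counts in all wild-type libraries and was at least 821-fold higher in the knockout in rich medium and at least 533-fold higher after starvation. Of 14 receptors, 5 fell and 2 rose in wild-type cells, where 18.0% of all genes fell and 14.8% rose. In knockout cells 1 fell and 2 rose, where 9.78% of all genes fell and 8.44% rose. Met, the receptor of hepatocyte growth factor, fell in wild-type cells (-2.06 ± 0.13), and Egfr rose in knockout cells (1.07 ± 0.14).

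Of 19 adaptor, Ras and kinase genes of the ERK arm, 4 fell and 0 rose in starved wild-type cells, where 18.0% of all genes fell, among them the scaffold Ksr1 (-1.76 ± 0.27) and the adaptor Gab1 (-1.14 ± 0.18). In knockout cells 1 fell, Ksr1 (-0.94 ± 0.26). After starvation 2 were higher and 3 lower in the knockout, where 27.8% of all genes were higher and 26.8% lower. In the 4 starved libraries alone 12 were higher and 5 lower, where 11038 genes were called in all, against 7586 over 8 libraries. The test between responses called 0 of the 19 with edgeR, with 2 at an unadjusted p under 0.05, against 1 with DESeq2 and 1 with limma-voom. This count depended on the knockout rich pair and rose with either of its libraries left out, as did the count over all genes. Of 16 genes of the p38 and JNK arms, 3 fell and 1 rose in wild-type cells, where 18.0% of all genes fell and 14.8% rose. In knockout cells 1 fell and 3 rose, where 9.78% of all genes fell and 8.44% rose. Gadd45a, which activates these arms, rose in wild-type and knockout cells (2.71 ± 0.14 and 3.55 ± 0.15). Gadd45g fell in wild-type cells (-2.22 ± 0.32) and rose in knockout cells (2.65 ± 0.34). The other negative regulators of the pathway fell in 5 of 12 cases and rose in 0 in wild-type cells, with Socs3 (-2.01 ± 0.40) and Lrig1 (-1.46 ± 0.20) lowest. In knockout cells 2 rose and 1 fell, and the EGF receptor inhibitor Errfi1 was among the risers (0.82 ± 0.13).

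Counts in these lists rested on the knockout rich pair, whose spread enters every test. With either library of that pair left out, the count over all genes rose as well in each comparison below. For starvation of wild-type cells, leaving out either replicate of that pair gave 3 rises and 9 falls of 19 in the ERK arm, 5 and 7 of 16 in the p38 and JNK arms, 3 and 7 of 14 receptors, 1 and 10 of 15 ligands and 1 and 16 of 20 ERK output genes. Other negative regulators had 1 rise and 8 falls without replicate 1, and 2 and 8 without replicate 2. For starvation of knockout cells the ERK arm had 3 rises and 5 falls without replicate 1, and 7 and 10 without replicate 2. The p38 and JNK arms had 4 rises and 4 falls, then 7 and 5. Ligands had 6 and 3, then 7 and 3, receptors 4 and 4, then 5 and 4, and other negative regulators 4 and 2, then 7 and 3. ERK output genes had 10 rises and 3 falls, then 14 and 3. In the 4 knockout libraries alone every list had 0 calls with edgeR, as had all genes. For the ERK output genes the responses differed in 18 above and 1 below without replicate 1, and in 17 and 1 without replicate 2. Where a list is given with 0 genes in 1 direction, apart from the response difference of the ERK arm above, DESeq2 and unadjusted edgeR p-values under 0.05 also gave 0 in that direction. limma-voom did too, except for 1 negative regulator and 3 ERK arm genes that rose in wild-type cells.

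**Figure D4:**
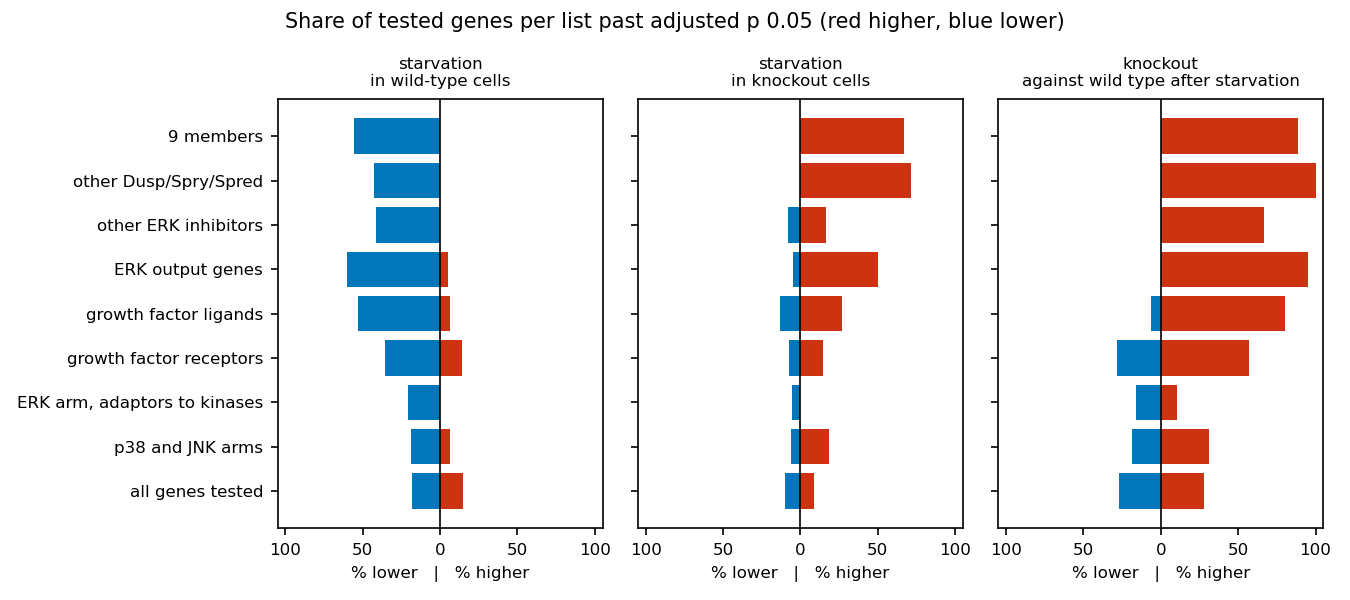
Share of the tested genes of each list (x axis, percent) that was called higher (red, to the right) or lower (blue, to the left) at an edgeR adjusted p under 0.05, in 3 comparisons. For the 9 members the bars point left in starved wild-type cells and right in starved knockout cells. For the ERK output genes the longer bars do so, with 1 of 20 genes in the opposite direction in each genotype. In the ERK arm 4 of 19 genes fell in starved wild-type cells and 1 in starved knockout cells.

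Likeness of pattern was measured as the root mean square difference between 2 genes' log2 CPM over the 8 libraries, each gene centred on its own mean. It was closest between Dusp1 and Spry2 (0.274) and between Spry2 and Spry4 (0.327), followed by Spred1 and Spred2 (0.461). Among 9385 other genes with a mean of at least 10 CPM, the closest to Dusp1 were Fhdc1 (0.0839) and Gm10389 (0.193), a predicted gene. Closest to Spry2 were Dusp10 (0.17), itself a MAP kinase phosphatase gene, and Actn1 (0.202). The nearest to Dusp4 were Sema7a (0.29) and Fam110c (0.303), to Dusp6 Adam8 (0.171) and Zbtb7c (0.235), and to Spry4 Enc1 (0.174) and Slco2a1 (0.222). The nearest to Spred1 were Ttl (0.0522) and Nek9 (0.0561), and to Spred2 Tsc22d1 (0.118) and Apcdd1 (0.141). For Spry1 they were Rad51c (0.396) and Rgl1 (0.454), at its few counts. All these values rest on the same 8 libraries in 4 groups and are descriptions.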

How the data were processed

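The authors deposited raw counts for each transcript of a RefSeq identifier. TopHat2 2.0.9, bedtools and build mm9 are named in the submitters' processing notes. The sources used here give neither strand nor the treatment of multiple matches, so overlapping or near-identical genes may share reads. Each of 23366 symbols took the transcript whose total over 8 libraries was highest. Columns were matched to samples by name. The 4 chromatin immunoprecipitation libraries were not analysed here.

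edgeR 4.0.16 in R 4.3.3 kept 13882 genes (filterByExpr) and scaled libraries by trimmed mean of M values (TMM). A mean per group was fitted to all 8 libraries, with quasi-likelihood tests and Benjamini-Hochberg adjustment at 0.05. SEs are the change divided by the root of F. CPM were computed here. The members and lists were chosen with earlier results of these data known. Beside the members, named genes are at most the 2 largest rises and 2 largest falls per list and comparison, with 5 CPM in a group compared, and Hbegf, Ereg, Hgf and Errfi1 are among them. The genes nearest to Dusp5 in pattern are not reported here. Alternatives were DESeq2 1.42.0, limma-voom 3.58.1 with quality weights, relative log expression scaling, no filter, a replicate block, only the groups compared, the lowest-total transcript and leaving out each library. Without a second library the lone one is assumed to vary like the other groups. Alternatives for the 7 other lists were chosen after seeing the data.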

Additional observations from a re-analysis of the deposited data

Results flagged for a closer look

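The starvation response differed between the genotypes in 5 members by a test of that difference over 8 libraries (edgeR, Benjamini-Hochberg adjusted over all genes). Dusp5 differed by 5.56 on the log2 scale (adjusted p = 0.00056), falling in wild-type and rising in knockout cells. Dusp1 and Spry2 differed by 2.42 and 2.33 (adjusted p = 0.00325 and 0.00143), with the same directions. Spry4 differed by 2.43 (adjusted p = 0.0126) with a called rise in knockout cells. Spred2 differed by 1.42 (adjusted p = 0.00965) with a called fall in wild-type cells. The calls of Dusp5, Dusp1 and Spry2 held with each library left out in turn. Those of Spry4 and Spred2 were lost in several of these fits, with values from 2.16 to 2.79 and from 1.28 to 1.66. The difference of Spry4 did not pass with limma-voom and quality weights either (adjusted p = 0.096).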

How the results depend on the processing

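Of 740 values of the members and Carm1 under the alternatives, 648 kept their direction and side of the threshold, 60 lost a call, 17 gained one and 15 changed sign. The cause of these changes was not tested. limma-voom with quality weights called 3 members and 1174 genes for starvation of knockout cells, 3 members and 3495 genes for the knockout in rich medium, and 9398 genes for starvation of wild-type cells. Fits of only the groups compared called 0 members and 0 genes, 3245 genes and 9332 genes in the same order, and could not be made for the difference between responses. Leaving out each library gave 2 to 5 members and 1576 to 9561 genes for starvation of wild-type cells, and 2 to 7 and 265 to 8409 for knockout cells. It gave 4 to 7 and 3369 to 10336 between genotypes in rich medium, 8 in each fit and 5127 to 11435 after starvation, and 3 to 8 and 452 to 8020 for the difference between responses. Main counts of genes were 4561, 2528, 6115, 7586 and 1850 in that order.

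Same-numbered replicates did not deviate together (correlations of -0.07 to 0.23 between groups), and the labels tie nothing else to a number. The replicate block gave 4 members for starvation of wild-type cells, without Spred1, and 5 for the knockout in rich medium, without Spred2, and called the same number as before in the other 3 comparisons (6, 8 and 5).

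Changes of sign came with a library left out, where values ranged as follows. For starvation of wild-type cells they were Dusp4 -0.11 to 0.67 and Dusp6 -0.23 to 0.15. For starvation of knockout cells they were Spred2 -0.36 to 0.0359 and Carm1 -0.31 to 0.23. For the knockout in rich medium they were Spry1 -0.33 to 0.22. For the knockout after starvation they were Spry1 -1.29 to 1.05. For the response difference they were Spry1 -1.19 to 1.14 and Carm1 -0.0112 to 0.51. With DESeq2 the response difference of Spry1 was -0.00697. Of the values with a changed sign, 1 passed the test, that of Carm1 in starved knockout cells without knockout rich replicate 2. Depth limits Spry1 most, with 3 to 23 counts a library.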
